A study of Mus musculus with 3 samples.

Results

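Ppargc1a and Prdm16 encode regulators of heat-producing fat, and the open chromatin around both genes was compared between fat cells from 3 mouse depots. Members are the DNase I hypersensitive sites whose midpoint falls in a fixed window around each gene in the mouse build mm9. The Ppargc1a window spans chromosome 5 from 51800000 to 52050000 (250 kb) and the Prdm16 window chromosome 4 from 153650000 to 154050000 (400 kb). They hold 38 of 172496 sites, 18 at Ppargc1a and 20 at Prdm16. By depot, these are 8 of 60974 sites from epididymal white fat (eWAT), 15 of 63214 from inguinal white fat (iWAT) and 15 of 48308 from brown fat (BAT). When sites that overlap or touch are joined, the windows hold 28 of 99297 regions, 14 each.

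DNase-seq reads the ends of DNA that the enzyme DNase I cuts in nuclei, so that a cluster of sequence tags marks accessible chromatin. All groups were cultures of stromal-vascular cells, a mixed preparation that contains fat cell precursors, from male NMRI mice aged 4 to 5 weeks. They were differentiated in vitro in the same medium with 30 nM insulin, 10% newborn calf serum and 1 µM rosiglitazone, an activator of PPARγ, and harvested at day 8. The brown fat cells came from a pool of interscapular, cervical and axillary depots, and a culture entered only if it was over 50% differentiated. There was 1 library per depot, so the depots could not be tested against each other and differences are descriptions of single libraries.

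Ppargc1a encodes PGC-1α, a transcriptional coactivator that docks on nuclear receptors such as PPARγ and drives mitochondrial biogenesis. In brown fat it is induced by cold through cyclic AMP signalling and raises transcription of Ucp1, which encodes the uncoupling protein that releases heat. Prdm16 encodes a zinc-finger protein with a PR domain that promotes the brown fat programme and represses muscle and white fat genes, working with C/EBPβ and the methyltransferase EHMT1. It is known to be expressed in brown fat and, among white depots, more in subcutaneous than in epididymal fat.

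For each gene 1 reference promoter stretch is printed, the 250 bases before 1 start that RefSeq gives in GRCm38.p6. Other starts, where a gene has them, were not examined, so a motif missing here may be present before another start. That build differs from the mm9 of the site lists, so neither stretch can be placed on a site here. The Ppargc1a stretch is chr5:51567726-51567975 and the Prdm16 stretch chr4:154636874-154637123, both on the minus strand and both written 5′ to 3′. Capitals mark the matches to the motifs searched.
Ppargc1a: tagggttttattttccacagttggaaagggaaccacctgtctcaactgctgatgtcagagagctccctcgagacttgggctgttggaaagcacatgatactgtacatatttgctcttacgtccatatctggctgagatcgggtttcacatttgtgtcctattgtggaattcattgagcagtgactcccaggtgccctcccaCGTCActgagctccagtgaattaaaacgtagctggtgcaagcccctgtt
Prdm16: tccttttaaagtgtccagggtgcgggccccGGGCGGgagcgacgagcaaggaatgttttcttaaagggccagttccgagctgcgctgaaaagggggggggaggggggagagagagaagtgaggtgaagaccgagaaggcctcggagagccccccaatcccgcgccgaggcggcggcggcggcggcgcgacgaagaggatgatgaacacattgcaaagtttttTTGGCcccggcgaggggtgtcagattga

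In the Ppargc1a stretch the capitals are the short core of the cyclic AMP response element (TGACG, on the opposite strand), 49 bases before the start. Of 32851 promoter stretches of the same length, 17.8% hold this core on either strand. In the Prdm16 stretch they are a GC box (GGGCGG), found in 32.7% of stretches, and a core of the NFI motif (TTGGC), found in 41.5%. No match in either stretch was found for the full response element TGACGTCA (1.55% of stretches, each of which also holds the core), a C/EBP-like motif TTGCNNAAT (2.11%), a TATA box TATAAA (12.4%), an EBF-like motif (0.779%) or a PPAR response element (0.0335%). G and C made up 48.0% of the Ppargc1a stretch and 62.4% of the Prdm16 stretch, where the median stretch had 52.4%. The Ppargc1a gene model in that table is 661605 bp long, including predicted transcripts, and is therefore longer than the window used here. The Prdm16 model is 321239 bp long.

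The 2 loci differed in how open sites were arranged. At Ppargc1a each depot listed 6 sites, concentrated in a few stretches where the depots' sites lay side by side. At Prdm16, iWAT and BAT listed 9 sites each, while eWAT listed 2. Of the 14 Prdm16 regions, 4 were in iWAT and BAT only (6.73% of all regions) and 1 in all lists (25.2%). Another 4 were in iWAT only (20.5%) and 4 in BAT only (11.4%). For a count of 6 the exact 95% Poisson interval is 2.20 to 13.1, for 9 it is 4.12 to 17.1, and for 2 it is 0.242 to 7.22. These intervals cover counting error only. In windows of 250 kb across the genome the median number of sites was 4 for eWAT, 5 for iWAT and 3 for BAT. In windows of 400 kb it was 8, 8 and 6. The Ppargc1a window was thus a little above the median in every depot, and the Prdm16 window was above it in iWAT and BAT and below it in eWAT.

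**Figure D1:**
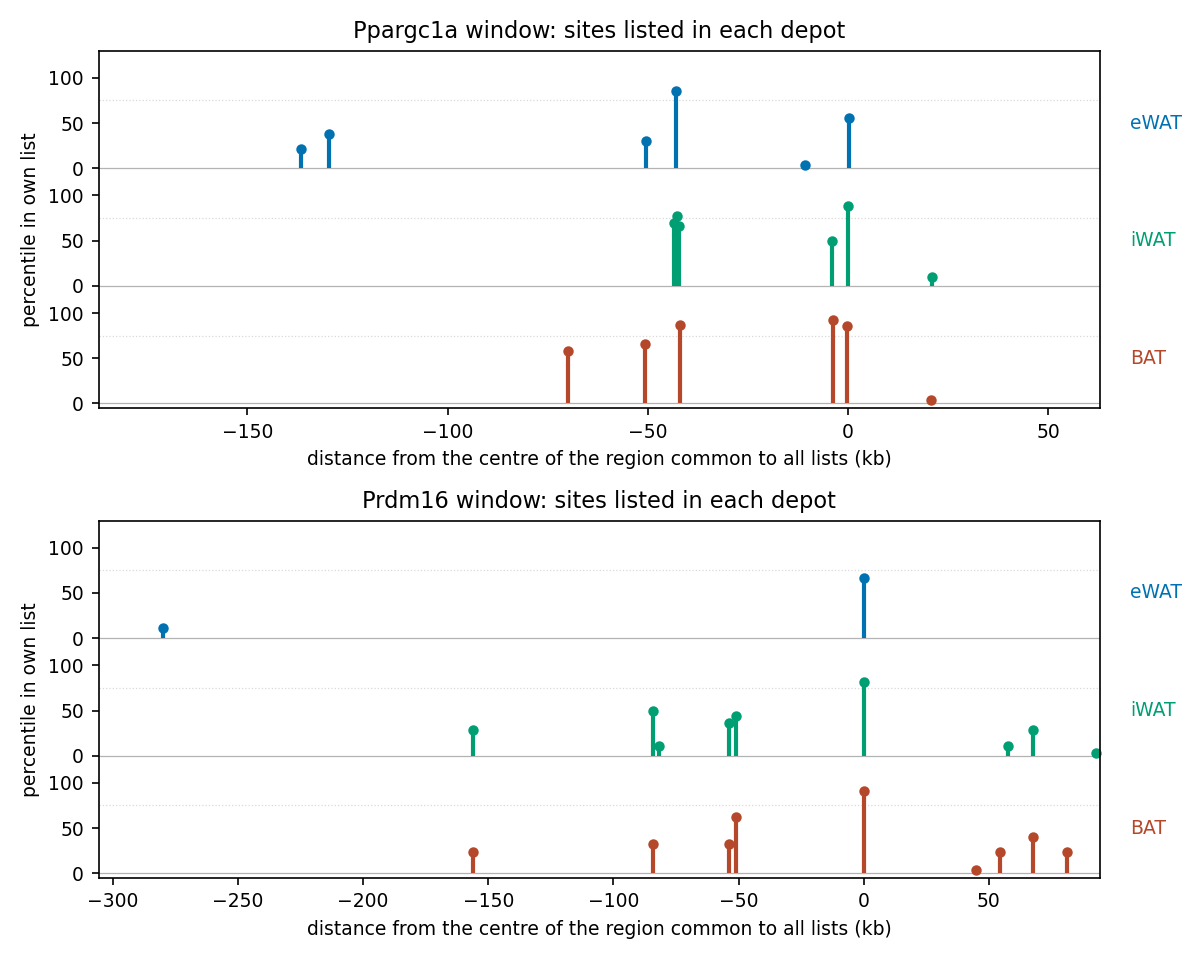
Positions of the 38 sites in the Ppargc1a window (top) and the Prdm16 window (bottom), as distance in kb from the region common to all lists, with the percentile of each site's tag count in its own list as the height of the line (dotted line: the 75th percentile). At Prdm16 the eWAT row holds 2 sites, and the iWAT and BAT rows hold 9 each.

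The strength of a site is given as recovered tags, the authors' normalized tag count divided by what 1 tag is worth in that library (0.595 in eWAT, 0.985 in iWAT, 0.857 in BAT), and as its percentile in its own list, where 100 is the highest. A site above the 75th percentile is called strong. At Ppargc1a, 3 BAT sites, 2 iWAT sites and 1 eWAT site were strong. At Prdm16, BAT and iWAT each had 1 strong site and eWAT had none. The median percentile of the Ppargc1a sites was 76.0 in BAT, 68.2 in iWAT and 34.2 in eWAT. That of the Prdm16 sites was 32.6 in BAT, 29.0 in iWAT and 39.5 in eWAT. The percentiles at Ppargc1a ran from 3.7 to 91.8 in BAT, 10.3 to 88.4 in iWAT and 3.8 to 85.1 in eWAT, so the depots overlapped widely.

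Ppargc1a had 1 region that all 3 lists share by overlap, at 51986880 to 51987393 on chromosome 5 (region 12 of 14, counted along the window). Genome-wide, 25.2% of regions were common to all lists. BAT held 27 tags there (normalized tag count 23.1, percentile 86.0), iWAT 29 tags (28.6, percentile 88.4) and eWAT 17 tags (10.1, percentile 55.2). BAT and iWAT were thus close in rank and eWAT lower by 30.8 percentile points than the nearer of them. A gap of at least 20 points below both other depots was found for eWAT in 5.53% of all common regions with 1 site per list. The overlap was a chain: the BAT and iWAT centres lay 131 bp apart, the iWAT and eWAT centres 161 bp, and the BAT and eWAT sites did not touch, with 71 bp between them. Centres spread over at least 100 bp occurred in 35.8% of such common regions.

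A longer stretch of chromosome 5, from 51943571 to 51945207 (1636 bp), also held sites of every depot, but no position was shared by all. Going along the chromosome, iWAT listed a site of 19 tags (percentile 69.8) at 51943571 to 51943793 that overlapped no other list. An eWAT site of 28 tags (normalized tag count 16.7, percentile 85.1) at 51944088 to 51944308 overlapped an iWAT site of 22 tags (21.7, percentile 77.4) at 51944266 to 51944488. The last iWAT site, of 18 tags (17.7, percentile 66.7), at 51944889 to 51945111, overlapped a BAT site of 28 tags (24, percentile 87.2) at 51944985 to 51945207. The strongest eWAT site of the window and the BAT site were thus 677 bp apart within 1 stretch that iWAT covered with 3 sites. Regions listed in eWAT and iWAT but not BAT make up 11.3% of all regions, and those in iWAT and BAT but not eWAT 6.73%. At Ppargc1a there was 1 of each among 14.

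The strongest site of the Ppargc1a window was a BAT site at 51983374 to 51983596, with 33 tags (normalized tag count 28.3, percentile 91.8). By overlap it was listed in BAT alone, but an iWAT site of 14 tags (13.8, percentile 49.4) began the same 531 bp stretch, 87 bp away. The nearest eWAT site lay 3577 bp away. A similar pair lay at 52007754 to 52008273, with 9 tags in BAT (percentile 3.7) and 9 in iWAT (percentile 10.3), 75 bp apart, and no eWAT site within 20361 bp. Another lay at 51936317 to 51936811, with 18 tags in BAT (normalized tag count 15.4, percentile 66.0) and 13 in eWAT (7.73, percentile 30.4), 52 bp apart. The 4 BAT-only regions of the window were these 3 BAT sites and a site at 51917038 to 51917260, with 16 tags (normalized tag count 13.7, percentile 57.9). That last site was 19331 bp from the nearest site of another depot and was the only BAT site of the window with none within 1 kb. BAT-only regions made up 28.6% of the 14 regions (exact 95% interval 8.39 to 58.1), against 11.4% of all regions, but the interval holds the background.

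**Figure D2:**
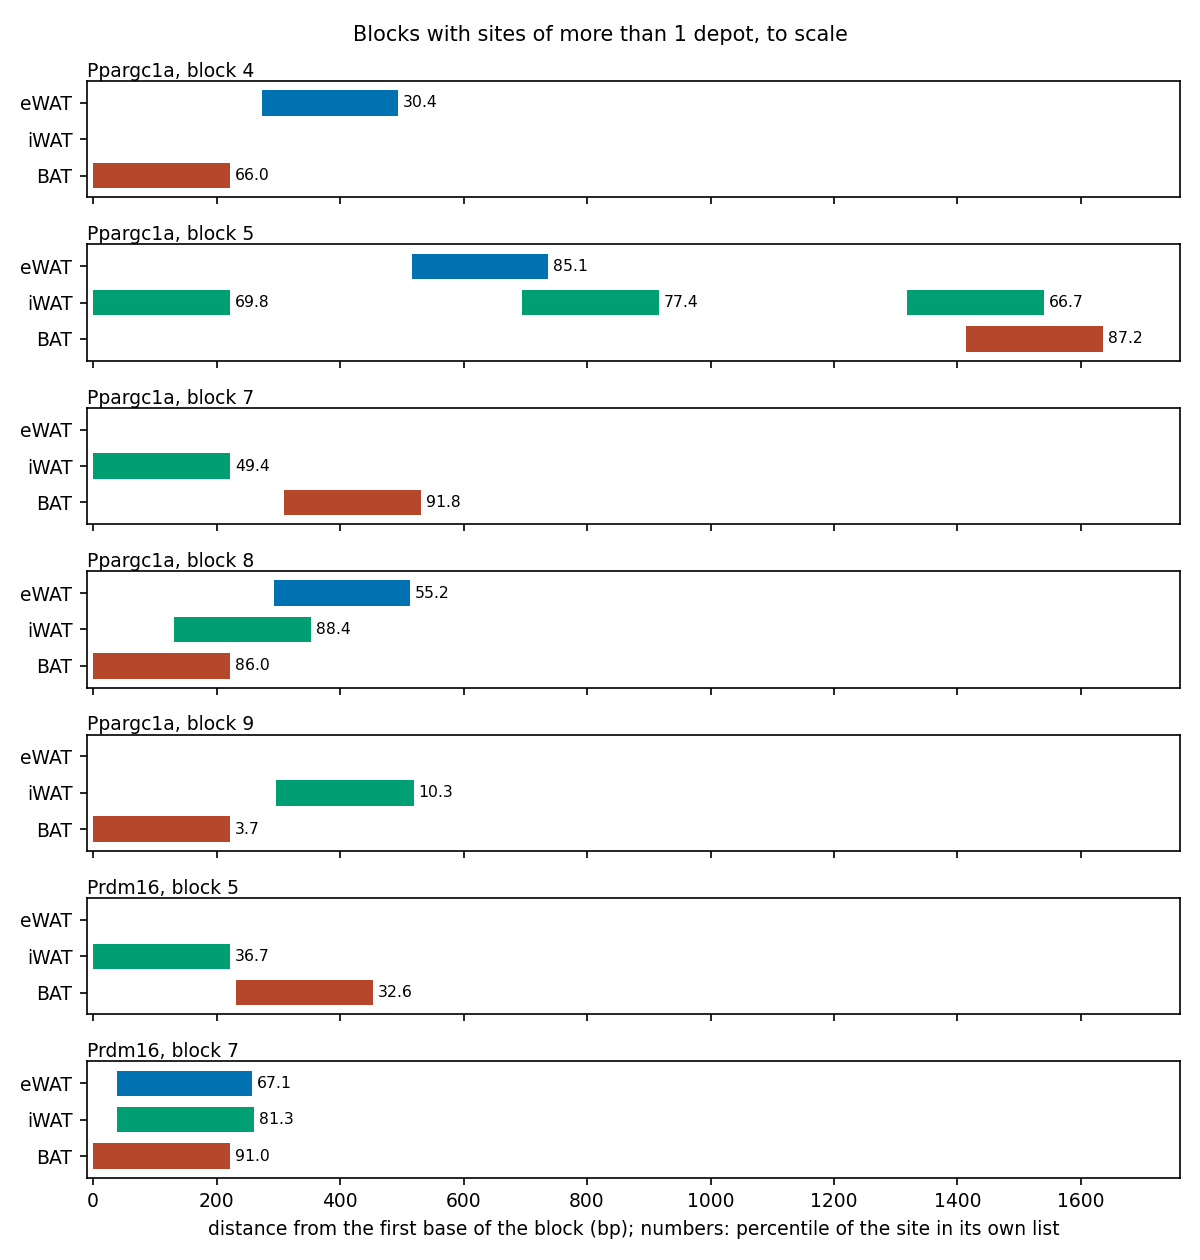
Sites of each depot drawn to scale in bp from the start of 7 blocks, 5 at Ppargc1a and 2 selected at Prdm16. Blocks are runs of sites no more than 1 kb apart, and each block drawn holds more than 1 depot. Of the 5 Prdm16 blocks with iWAT and BAT sites only, block 5 alone is drawn. In the others the iWAT and BAT sites overlap. The number beside a bar is the site's percentile in its own list. In Ppargc1a blocks 4, 7 and 9 the bars of different depots lie side by side without overlap, and in Prdm16 block 7 they lie on top of each other.

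When sites within 1 kb were joined into blocks, a setting chosen after seeing the data, Ppargc1a had 9 blocks. All depots had sites in 2 of them, iWAT and BAT shared 2 more, eWAT and BAT 1, and 3 held only eWAT and 1 only BAT. No block was held by iWAT alone, and each of the 6 iWAT sites lay within 1 kb of a BAT or eWAT site. Shares over blocks of the whole genome are not given here, so these block counts only describe the window. The eWAT-only sites lay at 51850343 to 51850563 (12 tags, percentile 21.7), 51857338 to 51857558 (14 tags, percentile 38.0) and 51976183 to 51976403 (10 tags, percentile 3.8). The first lay 66475 bp and the second 59480 bp from the nearest site of another depot. All 3 were below the median rank of the eWAT list. By overlap alone 4 of the 14 regions were in eWAT only, where the background is 19.6%, and 3 in iWAT only, where it is 20.5%. None was in eWAT and BAT only, where it is 5.32%.

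The leading site of the Prdm16 window lay at 153955534 to 153955795 on chromosome 4, and was at the same place in every depot. BAT held 32 tags (normalized tag count 27.4, percentile 91.0), iWAT 24 tags (23.6, percentile 81.3) and eWAT 20 tags (11.9, percentile 67.1). It was the highest Prdm16 site in each of the 3 lists. The eWAT and iWAT centres were 2 bp apart, and the BAT centre lay 37 bp from that of eWAT and 39 bp from that of iWAT. The median distance between centres over all common regions was 41 bp for eWAT and iWAT, 43 bp for eWAT and BAT and 44 bp for iWAT and BAT. Its tag density stood 26.47 times above its surroundings in BAT, 19.22 times in iWAT and 17.43 times in eWAT, at percentiles 98.3, 90.6 and 97.1 of these lists. BAT ranked highest, 9.8 points above iWAT.

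With a limit of 20 points, no depot stood above both others at the common region of either locus. Among all common regions with 1 site per list, eWAT did so in 7.36%, iWAT in 6.68% and BAT in 4.00%.

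Besides the common region, iWAT and BAT shared 4 Prdm16 regions in which eWAT listed nothing. The first lay at 153799479 to 153799796, with 11 tags in iWAT (normalized tag count 10.8, percentile 29.0) and 11 in BAT (9.42, percentile 23.4). The second, at 153871301 to 153871528, held 14 tags in iWAT (13.8, percentile 49.4) and 12 in BAT (10.3, percentile 32.6), with centres 5 bp apart. The third, at 153904547 to 153904784, held 13 tags in iWAT (12.8, percentile 43.5) and 17 in BAT (14.6, percentile 62.2), with centres 15 bp apart. All but the third were below the median rank of both lists. The fourth, at 154023383 to 154023639, held 11 tags in iWAT (10.8, percentile 29.0) and 13 in BAT (11.1, percentile 40.4). A further pair at 153901596 to 153902049, with 12 tags in each list, missed overlap by 9 bp. Regions in iWAT and BAT but not eWAT were thus 4 of 14, or 28.6% (exact 95% interval 8.39 to 58.1), where the background is 6.73%. This was 1 of 7 possible classes, and the interval treats regions as independent.

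The eWAT list held, apart from the common region, 1 site of 11 tags (normalized tag count 6.54, percentile 11.8) at 153675588 to 153675808, which lay 55796 bp from the nearest site of another depot. Beyond the common region, up to the end of the window, eWAT listed no site, where iWAT and BAT listed 3 and 4 sites. Of the 14 regions, 2 held an eWAT site (14.3%, exact 95% interval 1.78 to 42.8), where 61.4% of all regions do. At Ppargc1a, 6 of 14 did (42.9%, 17.7 to 71.1). With 14 regions per locus both intervals are wide, and they overlap. Both intervals treat neighbouring regions of 1 locus as independent, so they are no test of a difference between depots or between loci.

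Weak sites are often missing from another list, so the ranks of these sites matter. The 8 iWAT sites of the Prdm16 window without eWAT overlap lay in percentile deciles of which 29.6% to 54.3% of all iWAT sites share a region with eWAT. For the 8 BAT sites without eWAT the deciles' shares were 40.0% to 70.4%. Scaled by the median ratio of tags over all common regions (1.091 for eWAT over iWAT, 1.19 for eWAT over BAT), these 16 sites were equivalent to 8.73 to 20.2 tags in eWAT, where listed sites start at 7 tags and the median site holds 16. The lowest of these equivalents had fewer tags than nearly all listed eWAT sites (0.1% held fewer) and the highest, of the third region shared by iWAT and BAT, exceeded 68.8% of them. The lowest score in the eWAT list was 11, and 12 of the 16 equivalents reached that number. The sources used here do not state that 1 score unit is 1 tag. The sites were selected as listed in iWAT or BAT and not in eWAT, and the ratios came only from common regions. The equivalents may therefore be too high. Regions shared by iWAT and BAT also enter for both depots. The same share was not computed over all sites without eWAT, so 12 of 16 has no background and no conclusion is drawn from it. Tags at the positions of the 16 sites in the eWAT library, where its list holds no site, were not analysed here. The list alone thus cannot tell fewer tags from none.

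The number of eWAT sites at Prdm16 was also compared with other windows of the same length, in a comparison chosen after the values were seen. Of the 400 kb windows on a grid over the genome, 191 held within 1 site as many iWAT and BAT sites as Prdm16. Their eWAT sites numbered 3 to 20, with a median of 10. None held as few as the 2 eWAT sites at Prdm16 (0%), nor did any when the grid was moved by 100, 200 or 300 kb. The moved grids hold the same sites and are no independent check. Windows were matched on site numbers and not on the ranks of their sites, and the effect of rank on this comparison was not tested. Among all 6447 windows, whatever their iWAT and BAT sites, 26.6% held 2 eWAT sites or fewer.

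**Figure D3:**
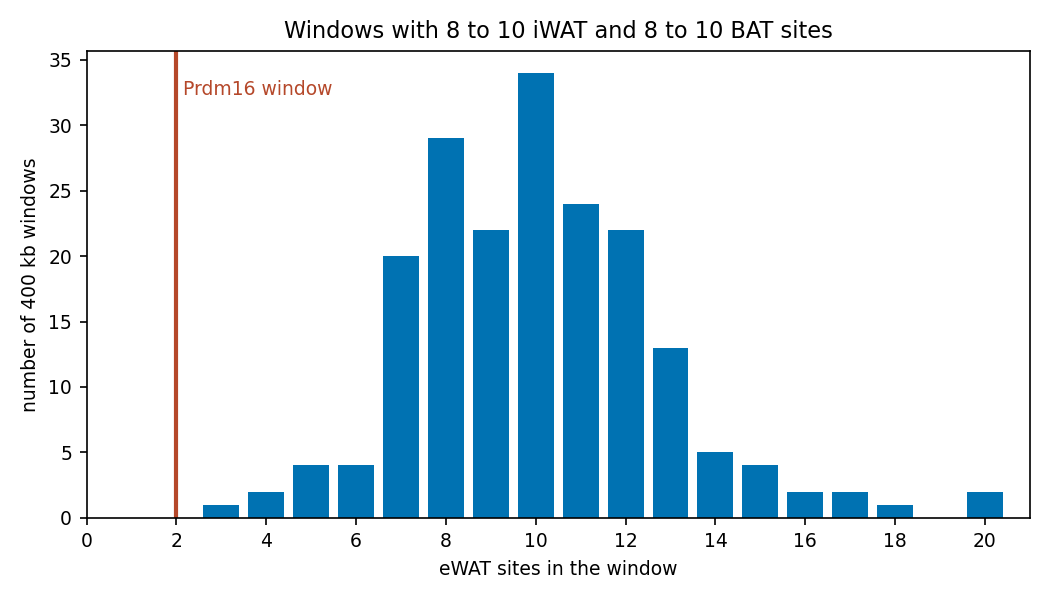
Number of eWAT sites (x axis) in the 191 windows of 400 kb (count of windows on the y axis) that hold 8 to 10 iWAT and 8 to 10 BAT sites. The vertical line is the Prdm16 window, with 2 eWAT sites, below the lowest bar at 3.

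The other Prdm16 sites of BAT and iWAT were weak and were listed in 1 of these depots alone. BAT-only and iWAT-only regions were 4 of 14 each (28.6%, exact 95% interval 8.39 to 58.1), where 11.4% and 20.5% of all regions fall in these classes, and the interval holds both shares. Among the 4 BAT-only regions, 1 belonged to the pair 9 bp apart (153901827 to 153902049, 12 tags, percentile 32.6). The other 3 lay at 154000608 to 154000830 (9 tags, percentile 3.7), 154010123 to 154010345 (11 tags, percentile 23.4) and 154036667 to 154036889 (11 tags, percentile 23.4). These 3 were 12466, 2951 and 11654 bp from the nearest site of another depot, and none reached the 25th percentile of its list. The 4 iWAT-only regions held 8 to 12 tags, at percentiles 2.9 to 36.7. One of them, at 154048543 to 154048765, lay 1.35 kb from the end of the window. The nearest sites outside were an iWAT site of 14 tags 30.3 kb before the window and a BAT site of 11 tags 152 kb after it. Around the Ppargc1a window they were a BAT site of 9 tags 172 kb before and an eWAT site of 12 tags 23.3 kb after.

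The loci also differed in how far sites stood out from their surroundings. The authors' fold over the local background was 4.19 to 12.79 at Ppargc1a and 7.34 to 26.47 at Prdm16, where each list starts at 4. It exceeded the median of its own list (7.46 in eWAT, 9.91 in iWAT, 9.23 in BAT) in 2 of 18 sites at Ppargc1a and in 15 of 20 at Prdm16. The median fold percentile was 17.1 at Ppargc1a and 75.4 at Prdm16, while the median tag percentile was 61.9 and 30.8. By depot, the median fold percentile was 13.5 in BAT, 8.9 in iWAT and 22.6 in eWAT at Ppargc1a, and 75.6, 73.2 and 97.5 at Prdm16. Local enrichment was thus lower at Ppargc1a in each depot. Tags ranked higher at Ppargc1a in BAT and iWAT but not in eWAT, where the median percentile was 34.2 against 39.5 for the 2 Prdm16 sites. Sites of different lists in 1 region share their sequence and are not independent.

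All 6 strong Ppargc1a sites lay under the median fold of their list, against 29.3% of all strong sites. Of these, the iWAT site of the common region was the nearest to the median, at 9.83 times its surroundings. The BAT site at 51944985 to 51945207, in the 1636 bp stretch, stood 4.19 times above its surroundings, at percentile 0.9. At Prdm16 both strong sites lay above the 90th fold percentile. The pattern held in each depot: at Ppargc1a the sites above the median fold numbered 1 of 6 in eWAT, 1 of 6 in iWAT and 0 of 6 in BAT, and at Prdm16 2 of 2, 7 of 9 and 6 of 9. The focus ratio, a fraction that the authors give for each site, exceeded the list median in 6 of 18 Ppargc1a sites and 14 of 20 Prdm16 sites. Clonal folds were 0.93 to 0.98 at both loci, near the list medians of 0.97.

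**Figure D4:**
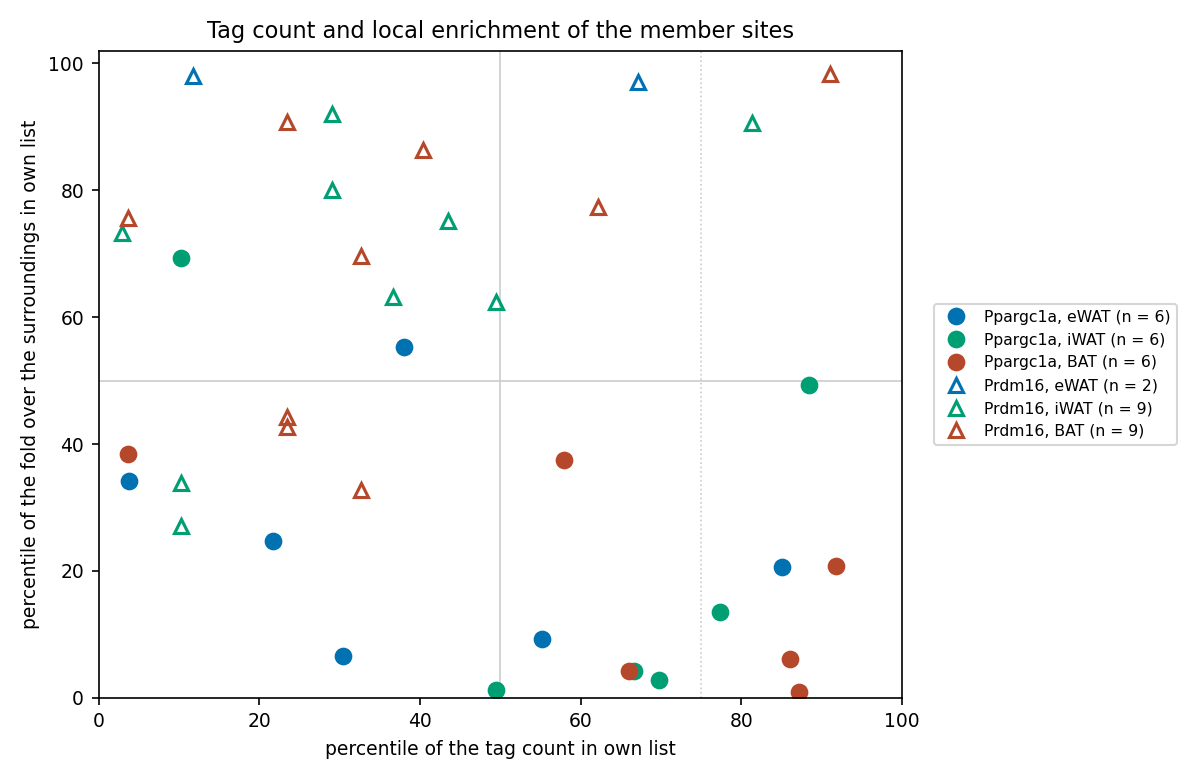
Percentile of the tag count (x axis) against percentile of the fold over the surroundings (y axis), each in the site's own list, for the 38 sites, with filled circles for Ppargc1a, open triangles for Prdm16 and colours for depots (solid lines: 50th percentile; dotted line: limit of strong sites). Ppargc1a sites lie mostly at the lower right and Prdm16 sites mostly at the upper left, with both loci spread over a wide range.

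Where depots shared a region, the ratio of their tags was set against the median ratio over all 24988 common regions with 1 site per list. At the common Prdm16 region BAT had 1.90 times as many tags as eWAT on this scale (exact 95% interval 1.06 to 3.51), iWAT 1.31 times as many as eWAT (0.693 to 2.50) and BAT 1.45 times as many as iWAT (0.830 to 2.58). At the common Ppargc1a region the ratios were 1.89 for BAT over eWAT (0.994 to 3.70), 1.86 for iWAT over eWAT (0.989 to 3.61) and 1.02 for BAT over iWAT (0.579 to 1.78). Centres there were 131 to 292 bp apart, so the tags were counted over different bases. Ppargc1a region 7 went the other way, with 0.857 for iWAT over eWAT (0.467 to 1.55). For BAT over iWAT in Ppargc1a region 8 the ratio was 1.70 (0.906 to 3.26). In the 4 Prdm16 regions shared by iWAT and BAT alone the ratio of BAT over iWAT was 0.935 to 1.43. Each of those intervals included 1. Of the 12 ratios over both loci, 1 had an interval that did not include 1, and the intervals carry no error between libraries and no adjustment for their number.

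**Figure D5:**
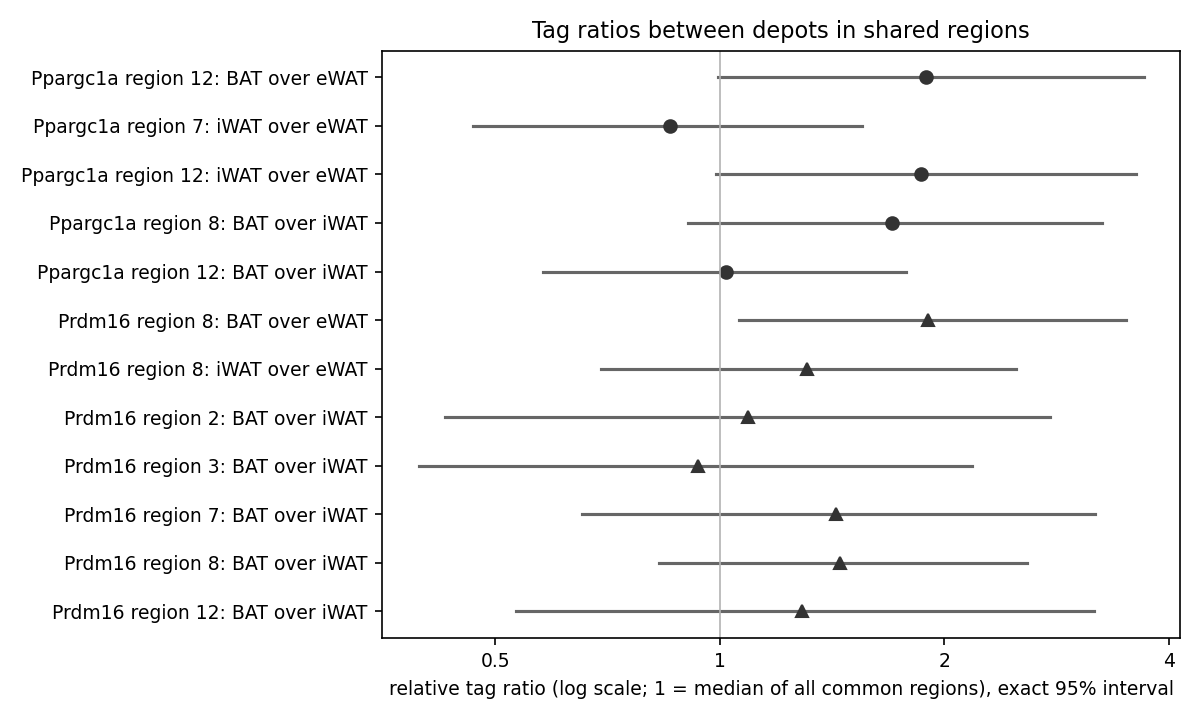
Relative tag ratio between depots (x axis, log scale, 1 is the median of all common regions) for the 12 pairs of sites that share a region, with exact 95% intervals from the tag counts as lines, circles for Ppargc1a and triangles for Prdm16. The interval of BAT over eWAT at Prdm16 region 8, the common region, runs from 1.06 to 3.51, and the other 11 include 1.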

How the data were processed

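DNase-seq sites were deposited as 1 list per depot. STAR, HOMER and the build mm9 appear in the submitters' processing notes, without roles or settings. Column names are those of HOMER's findPeaks. Per the file headers, the authors give each site a normalized tag count (used as a signal, scaled to a library total that the files do not state), a focus ratio (a fraction), a peak score, a fold (ratio) over the surroundings and its p-value, and the clonal fold (ratio). The deposited scores began at 11 for eWAT, 9 for iWAT and 10 for BAT. Dividing by the value of 1 tag gave whole tags for 99.7%, 99.1% and 99.4% of values, within 0.005 below 10 and 0.05 above. Sites overlapping by at least 1 bp or touching were joined into regions. Intervals are exact (Clopper-Pearson or Poisson, 95%) and cover counting error only.

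The members and lists were chosen with earlier results of these data known. Named by rule were all strong regions, all BAT-only regions and common regions with a gap of 20 percentile points; the text adds the remaining shared regions. Other thermogenic genes were not analysed here, for lack of an mm9 gene table, nor were sequences of the sites. The joining and tag steps were tested on simulated data. Python 3.11.15, numpy 2.4.6, pandas 2.3.3, scipy 1.17.1 and matplotlib 3.10.9 were used.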

Additional observations from a re-analysis of the deposited data

How the results depend on the processing

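Of 125 recomputed values, 95 stayed within 1.5 times the reported one and 30 did not. At Ppargc1a the 1 common region became 0 when 50% of the shorter site had to overlap and 2 when sites within 1 kb were joined. The 1 region in iWAT and BAT alone became 3 with sites within 200 bp joined and 2 within 1 kb, and the 4 BAT-only regions became 1 in both. At Prdm16 the 4 regions in iWAT and BAT alone became 0 with the top 50% of each list, and the 4 BAT-only regions became 1 there and 1 with the window narrowed by 50 kb on each side. Lists of equal length, the same minimum score in all lists and the wider window moved none of these counts by more than 1.5 times. That minimum was set at 8.87 in units of normalized tags and not as a raw score. It left 39039 eWAT sites, 42606 BAT sites and all 63214 iWAT sites.

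Ranked by fold over the surroundings, the median percentile at Ppargc1a was 13.5 in BAT, 8.9 in iWAT and 22.6 in eWAT, and at Prdm16 75.6, 73.2 and 97.5, so the order of the loci turned in BAT and iWAT. In eWAT the Ppargc1a median was 21.7 with lists of equal length, and the Prdm16 median was 67.1 with the narrowed window. That last value is the percentile of a single site, because only the eWAT site of the common region remained. Ranked by fold, Ppargc1a then had 0 strong sites in each of eWAT, iWAT and BAT, and Prdm16 had 2, 4 and 5. With strong set to the top 10%, Ppargc1a had 1 strong BAT site and 0 from the white depots, and Prdm16 had 0 in iWAT. With lists of equal length Ppargc1a had 1 in iWAT. Ranked by fold, 1 depot stood at least 20 points above both others at the common Ppargc1a region, and ranked among common regions only, 1 did at that of Prdm16. The cause of these changes was not tested. No paired analysis was possible because each depot has 1 library.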
